A study of Homo sapiens with 9 samples.

Results

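The CXC chemokines CXCL1, CXCL2, CXCL3, CXCL5, CXCL6, CXCL8, CXCL10, CXCL11, CXCL14 and CXCL16 were followed across 3 human breast cell lines that stand for successive stages of disease. Every probe set annotated to a member gene alone was taken, which gave 18 of the 54675 probe sets on the array and 10 of the 19775 genes they name. RNA was measured on 1-colour Affymetrix arrays, 3 per line and 9 in all. The line MCF-10AT1Kcl2 (MII) is labelled as carcinoma in situ, MCF-10A1h (MIII) as carcinoma and MCF-10A1a (MIV) as metastatic carcinoma. They belong to the MCF-10A series, in which a non-tumorigenic mammary epithelial line was given activated HRAS and passaged in mice, so all 3 lines share that oncogene. All were untreated and grown in the same DMEM/F12 medium with horse serum, insulin, cholera toxin, epidermal growth factor and hydroxycortisone. Each stage was represented by 1 line, so a difference between lines cannot be told apart from a difference between stages. The 3 arrays per line are labelled biological replicates, but separate cultures are not mentioned, so p-values measure the spread between arrays, some of which may be technical.

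Chemokines are small secreted proteins that steer migrating cells through G protein-coupled receptors, and the CXC family is named for a pair of cysteines parted by another residue. CXCL1, CXCL2, CXCL3, CXCL5, CXCL6 and CXCL8 carry the residues Glu-Leu-Arg before those cysteines, act on CXCR2 (CXCL6 and CXCL8 on CXCR1 too), and attract neutrophils and promote vessel growth. CXCL10 and CXCL11 lack these residues, are induced by interferons and act on CXCR3 of T cells. CXCL14 is made constitutively by many epithelia, and CXCL16 is a membrane-bound ligand of CXCR6 that proteases release from the cell surface. NF-kB, the transcription factor switched on by interleukin 1 and TNF, is the best known activator of the neutrophil-attracting members in epithelial cells.

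The start regions of these genes are shown because most share one short element, in members that moved and in members that stayed dim. RefSeq promoter windows (GRCh38.p14) were given for 9 of the 10 members, and the 250 bases before each start were searched on both strands for GGAATTTCC, a classical NF-kB element. It was found in 8 of the 9 windows, all except that of CXCL14, against 0.413% of all 35116 windows of the same length. The genes are paralogs, so these matches are not independent of each other. CXCL16 had no window, so tested members with and without the element could not be compared. In the stretches below, written 5′ to 3′ on the strand of the gene, capitals mark the element.
CXCL1: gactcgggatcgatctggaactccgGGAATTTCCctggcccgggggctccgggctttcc
CXCL2: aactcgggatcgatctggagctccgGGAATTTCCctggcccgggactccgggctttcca
CXCL3: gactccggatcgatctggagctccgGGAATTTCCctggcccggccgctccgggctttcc
CXCL8: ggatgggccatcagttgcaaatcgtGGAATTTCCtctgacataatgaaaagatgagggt
CXCL5: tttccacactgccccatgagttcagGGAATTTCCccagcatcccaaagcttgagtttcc
CXCL6: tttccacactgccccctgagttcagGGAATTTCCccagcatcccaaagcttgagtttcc

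The stretch of CXCL1 lies at chr4:73869290-73869348 (plus strand) and that of CXCL2 at chr4:74099239-74099297 (minus strand). That of CXCL3 lies at chr4:74038734-74038792 (minus strand) and that of CXCL8 at chr4:73740453-73740511 (plus strand). Those of CXCL5 and CXCL6 lie at chr4:73998734-73998792 (minus strand) and chr4:73836564-73836622 (plus strand). The element began 78 bases before the start of CXCL1, 77 before CXCL2, 78 before CXCL3, 91 before CXCL8, 90 before CXCL5 and 89 before CXCL6. In CXCL10 and CXCL11 it was read from the opposite strand, as GGAAATTCC, 176 and 75 bases before the start. Aligned over the 250 bases, the windows of CXCL1, CXCL2 and CXCL3 were 70.1% to 81.4% identical and those of CXCL5 and CXCL6 85.3%, while the other 32 pairs ranged from 41.9% to 54.2%. The AP-1 letters TGACTCA, on either strand, were present in the windows of CXCL8, CXCL11 and CXCL14 and in 4.2% of all windows. An interferon-response (ISRE-like) pattern, a pair of GAAA parted by any 2 bases and searched on both strands, was present in that of CXCL10 and in 3.02% of all windows. A stretch around it at chr4:76023684-76023743 (minus strand) is shown because it is the feature that sets CXCL10 apart from the other 8 windows, again with the pattern in capitals.
CXCL10: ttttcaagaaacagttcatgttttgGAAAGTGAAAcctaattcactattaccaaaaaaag

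The deposited values are MAS5 signals on a linear scale, scaled by the authors so that the arrays have nearly equal trimmed means, and the pooled median of all values was 69.3. Across probe sets other than controls, which are features and not replicates, r was 0.974 to 0.976 within a line and 0.946 to 0.961 between lines. MIV replicate 3 stood apart in its bioB hybridisation controls, with a mean of 3646 against 1178 to 1763 on the other arrays. Without that array 5, 5 and 2 members were called in the comparisons of MIII with MII, MIV with MIII and MIV with MII, the counts given below. The epithelial markers EPCAM, CDH1, KRT5, KRT8, KRT14 and KRT18 were above the pooled median on every array, but not at equal levels. EPCAM and CDH1 were called lower in MIII than in MII (log2 change -2.20 ± 0.07 and -3.19 ± 0.05), and KRT14 was called lower in MIII (-1.16 ± 0.11) and in MIV (-3.82 ± 0.11) than in MII. The pan-leukocyte marker PTPRC lay between 0.8 and 39.9 on all of its probe sets and arrays.

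Of the 10 members, 5 gave signals above the pooled median on at least 3 arrays and were tested: CXCL1, CXCL2, CXCL3, CXCL8 and CXCL16. Each of these exceeded the median on 9 arrays, or 8 for CXCL16, so none passed through a high line alone. CXCL5, CXCL6, CXCL10, CXCL11 and CXCL14 stayed under the pooled median on all 9 arrays by every probe set. Changes are log2 ratios of signal plus an offset of 18.3, with standard errors (SE) from limma, and calls required both a Benjamini-Hochberg adjusted p under 0.05 and a 2-fold difference or more. On this scale the change of dim genes is understated.

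CXCL1, CXCL2 and CXCL3, close paralogs that attract neutrophils through CXCR2, had their highest signals in MIII. CXCL1 had signals of 698, 559.9 and 585.5 in MII, 6742, 6736 and 6326 in MIII and 1882, 2276 and 1627 in MIV. No array of one line overlapped another line, and MIV lay between MII and MIII. In limma, CXCL1 was higher in MIII than in MII by 3.39 ± 0.11 on the log2 scale (adjusted p = 1.09e-11), about 10.5-fold. In MIV it was lower than in MIII by a log2 change of -1.78 ± 0.11 (adjusted p = 8.63e-09) and higher than in MII by 1.61 ± 0.11 (adjusted p = 4.11e-08).

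CXCL2 reached 491, 429.5 and 374 in MII, 3177, 2815 and 2906 in MIII and 377, 345 and 242 in MIV on its brightest probe set. The MIII arrays stood apart, while the arrays of MIV and MII overlapped. Its log2 change was 2.74 ± 0.14 in MIII against MII (limma adjusted p = 1.8e-09) and -3.16 ± 0.14 in MIV against MIII (adjusted p = 3.68e-10), the largest fall of the 5 tested members in that comparison. Between MIV and MII the log2 change was -0.42 ± 0.14 (adjusted p = 0.0279), short of the 2-fold minimum. It was -0.24 (adjusted p = 0.12) without MIV replicate 3 and -0.06 (adjusted p = 0.83) with all probe sets of CXCL2 averaged. This probe set carries the suffix _x_at, which marks probes that may bind transcripts of related genes. A dimmer, suffix-free probe set of CXCL2 gave 9.3, 26.1 and 28.8 in MII, 161, 137 and 120.2 in MIII and 27.0, 4.9 and 22.4 in MIV. It passed the filter only through its MIII arrays, so a test after the filter is no support for its peak there. In a fit of all probe sets without the filter, its log2 change was 2.02 ± 0.36 in MIII against MII (limma adjusted p = 0.00105), -2.16 ± 0.36 in MIV against MIII (adjusted p = 0.000526) and -0.14 ± 0.36 in MIV against MII (adjusted p = 0.873). With all probe sets of CXCL2 averaged, the change in MIV against MIII was -1.88 ± 0.16. The third probe set of CXCL2 stayed between 1.7 and 35.8.

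CXCL3 showed the same peak at lower signals of its own. Its signals were 179.7, 186 and 144 in MII, 628, 639.9 and 704 in MIII and 128, 77.6 and 77.6 in MIV. The 3 lines did not overlap. CXCL3 was higher in MIII than in MII by 1.85 ± 0.18 (limma adjusted p = 1.34e-06) and lower in MIV than in MIII by a log2 change of -2.61 ± 0.18 (adjusted p = 3.58e-08). In MIV against MII the log2 change was -0.76 ± 0.18 (adjusted p = 0.00377), which did not reach 2-fold. CXCL1 was thus called higher in MIV than in MII, whereas CXCL2 and CXCL3 had changes below 0 that were not called. The transcripts of these 3 paralogs are closely related, so part of each signal may come from another of them, and this was not tested.

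CXCL8, also named interleukin 8, attracts neutrophils through CXCR1 and CXCR2 and stimulates endothelial cells. Its signal was lowest in MII, higher in MIII and highest in MIV. On the brighter probe set, its signals were 804, 842.5 and 925 in MII, 3748, 3339 and 3602 in MIII and 7405, 7181 and 7198 in MIV. The lines did not overlap, and the MIV arrays lay within a narrow band. This probe set carries the _x_at suffix as well, and neither probe set of CXCL8 is free of a suffix. The log2 change was 2.03 ± 0.06 in MIII against MII (limma adjusted p = 1.06e-11), 3.06 ± 0.06 in MIV against MII (adjusted p = 3.61e-13) and 1.02 ± 0.06 in MIV against MIII (adjusted p = 1.25e-08). The step between MIV and MIII lay just over the 2-fold minimum. It fell just short of it under quantile normalization (0.98), cyclic loess (0.98) and without MIII replicate 2 (0.98), with limma adjusted p between 2.37e-08 and 1.65e-07 in those fits.

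A dimmer probe set of CXCL8 (suffix _s_at) followed the same order. It gave 197, 147 and 106 in MII, 901.5, 869 and 647 in MIII and 1787, 1803 and 2141 in MIV. Fitted among all probe sets, it was higher by 2.31 ± 0.18 in MIII against MII, by 3.55 ± 0.18 in MIV against MII and by 1.24 ± 0.18 in MIV against MIII, where the limma adjusted p was 6.24e-05. Both probe sets of CXCL8 were therefore called in all 3 comparisons. Of the 18 member probe sets, 7 passed the filter and were tested. Of those, 6 were called higher and 1 lower in MIII against MII, where 10.1% of all tested were called (5.56% higher and 4.52% lower). In MIV against MIII, 3 were called higher and 4 lower, where 11.1% of all were called (4.21% higher and 6.9% lower). In MIV against MII, 3 were called higher and 0 lower, where 6.72% of all were called (2.52% higher and 4.2% lower). The dimmer CXCL2 probe set, which passed only through MIII, is among those counted in the comparisons with MIII. Without the filter the member probe sets called were 7 in MIII against MII, 9 in MIV against MIII (3 higher and 6 lower) and 3 in MIV against MII.

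**Figure D1:**
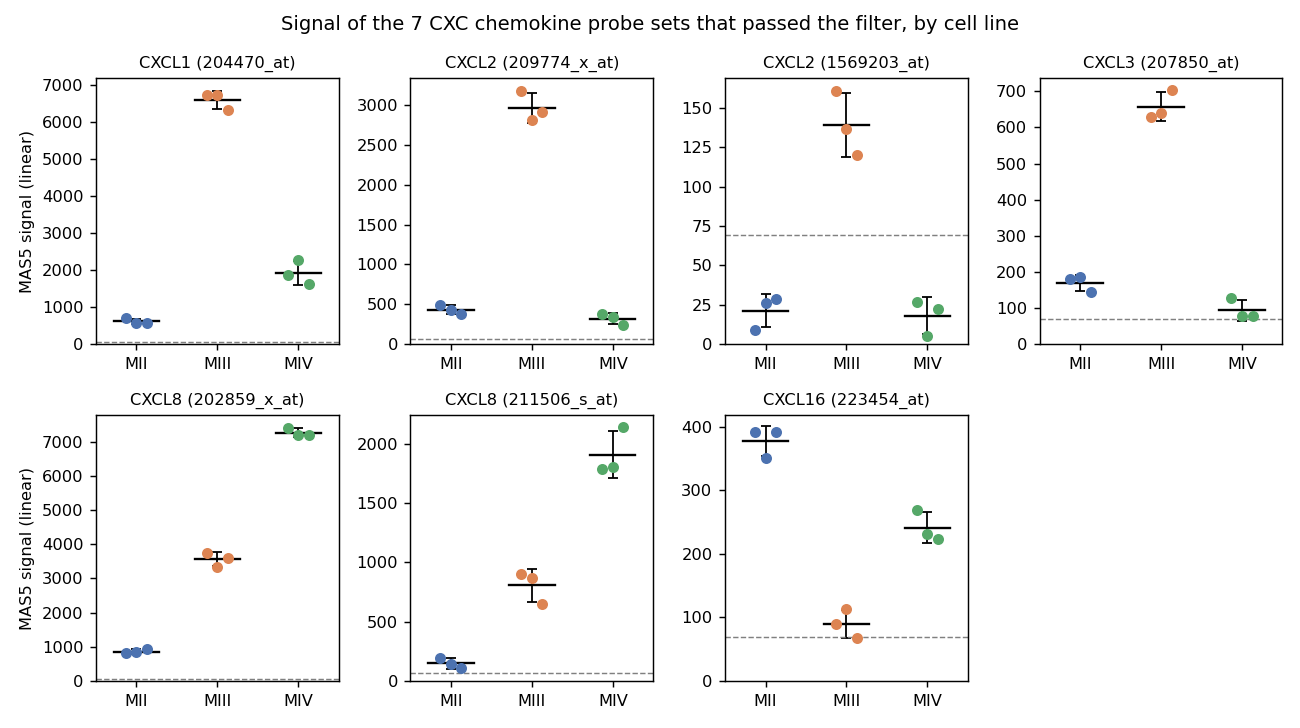
Each panel plots the MAS5 signal (linear, from 0) of a CXC chemokine probe set that passed the filter, by line, with 3 arrays as points, the mean as a bar and the SD as whiskers; the dashed line is the pooled median of 69.3. CXCL1, CXCL2 and CXCL3 peak in MIII, both CXCL8 probe sets climb to 7261 and 1910 (means, MIV), and CXCL16 is lowest in MIII.

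CXCL5 and CXCL6, the other neutrophil-attracting members, stayed dim. The probe sets of CXCL5 ranged from 0.8 to 33.9 over the 9 arrays, and the probe set of CXCL6 ranged from 0.4 to 24.9. On each of these probe sets the lines overlapped in every comparison. The NF-kB letters lie in the windows of these genes as they do in those of CXCL1, CXCL2, CXCL3 and CXCL8.

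The interferon-inducible members were dim as well. CXCL10 had 4.2, 37.6 and 31.7 in MII, 15.8, 34.2 and 14.5 in MIII and 37.1, 39.6 and 59.2 in MIV, all under the pooled median. Its MIV arrays lay above those of MIII but overlapped those of MII. CXCL11 ranged from 1.6 to 41.6 over its probe sets, with overlapping lines. In a fit without the filter, CXCL10 had a log2 change of 0.69 ± 0.38 in MIV against MIII (limma adjusted p = 0.206).

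CXCL14 was measured by 3 probe sets, none of which exceeded the pooled median on any array. On them the MIV arrays ranged no higher than 5.1, and the highest MIII array reached 64.6. In a fit of genes without the filter its brightest probe set had a log2 change of -1.02 ± 0.46 in MIV against MIII (limma adjusted p = 0.124). The other probe sets, both with the suffix _s_at, did not overlap between MIV and MIII. They gave 2.0, 5.1 and 2.1 in MIV against 64.6, 21.1 and 23.3 in MIII, and 2.1, 2.5 and 1.6 in MIV against 18.7, 29 and 28 in MIII. In the fit of all probe sets without the filter both were called lower in MIV, by log2 changes of -1.27 ± 0.30 (limma adjusted p = 0.00697) and -1.09 ± 0.27 (adjusted p = 0.00943). All of these signals lie under the pooled median, and the 3 probe sets differ in the call.

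**Figure D2:**
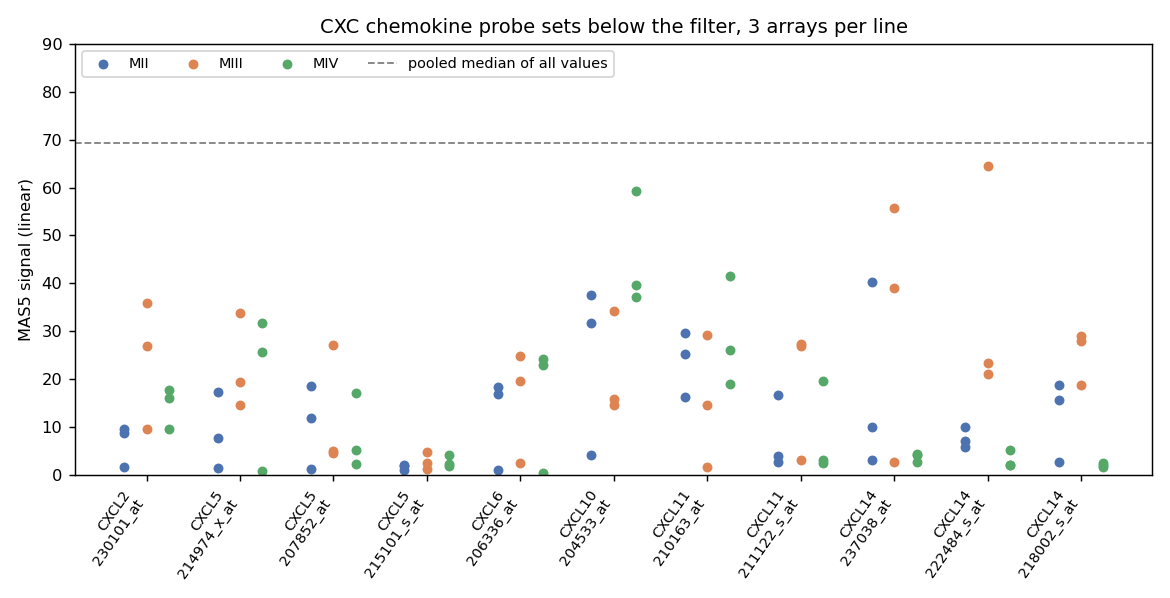
The MAS5 signals (linear) of the 11 CXC chemokine probe sets that did not pass the filter are plotted for 3 arrays of MII, MIII and MIV. All points lie under the dashed pooled median of 69.3, and the highest is a CXCL14 value of 64.6 in MIII.

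CXCL16, the membrane-bound ligand of CXCR6 and a scavenger receptor for oxidised lipoprotein, ran against CXCL1, CXCL2 and CXCL3. Its signals were 391, 350.1 and 392 in MII, 89.8, 112.5 and 68.0 in MIII and 269, 231.5 and 223 in MIV. The lines did not overlap, with MII highest and MIII lowest. Its log2 change was -1.89 ± 0.17 in MIII against MII (limma adjusted p = 6.84e-07) and 1.28 ± 0.17 in MIV against MIII (adjusted p = 2.73e-05). Against MII, MIV had a log2 change of -0.61 ± 0.17 (adjusted p = 0.0113), which did not reach 2-fold. With an offset equal to the pooled median, the change in MIV against MIII was 0.97 ± 0.13 and no longer reached 2-fold. Of its sheddases, ADAM10 and ADAM17, neither was called in any comparison. The ADAM10 log2 change was -0.52 ± 0.06 in MIV against MIII (adjusted p = 1.02e-05), -0.33 ± 0.06 for MIV over MII (0.000736) and 0.18 ± 0.06 for MIII over MII (0.0282).

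Over the whole family, 5 of the 10 members were tested. MIII against MII called all 5, CXCL1, CXCL2, CXCL3 and CXCL8 higher and CXCL16 lower. All genes tested were called at 11.7%, with 6.17% higher and 5.55% lower. The median log2 change of the 5 tested members was 2.03, beside -0.02 over all 12594 genes tested. In MIV against MIII the same 5 were called, CXCL8 and CXCL16 higher and CXCL1, CXCL2 and CXCL3 lower, where 12.7% of genes were called (4.95% higher and 7.79% lower). The median there was -1.78, beside -0.01 over all genes. In MIV against MII only CXCL1 and CXCL8 were called, both higher, where 8.14% of genes were called (2.96% higher and 5.18% lower). These comparisons share arrays, since each line enters 2 of the 3. The arrays did not overlap for all 5 tested members in MIII against MII and in MIV against MIII, and for 4 of 5 in MIV against MII. Of all genes tested, 55.3%, 58.8% and 50.7% did not overlap in those comparisons. An exact permutation test (two-sided) returned p = 0.1 wherever arrays did not overlap, which is the lowest p open to groups of 3, and p = 0.2 for CXCL2 in MIV against MII.

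**Figure D3:**
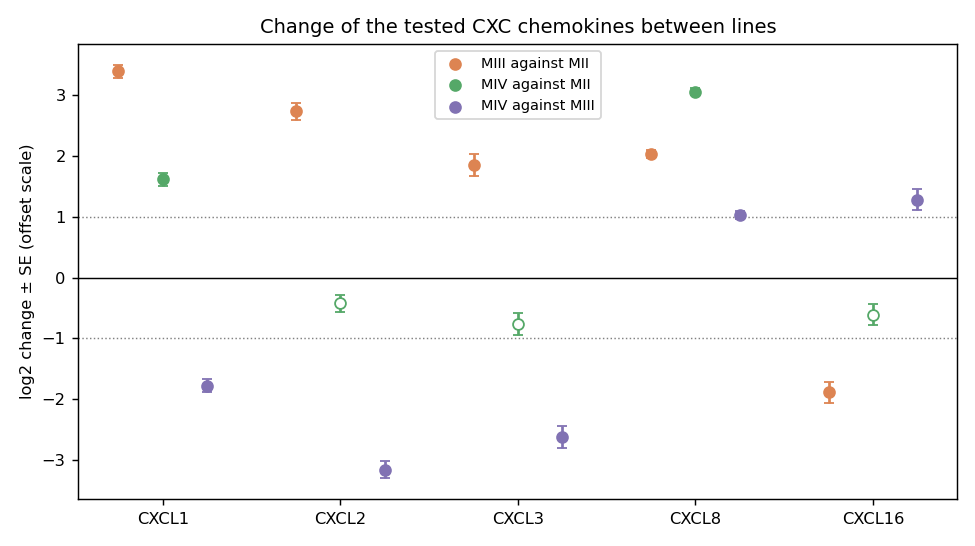
Points give the log2 change on the offset scale, with SE as whiskers, of the 5 tested CXC chemokines in each comparison of lines; filled points were called and dotted lines mark 2-fold. CXCL8 is above 0 in all 3 comparisons, and CXCL16 has signs opposite to those of CXCL1, CXCL2 and CXCL3 in MIII against MII and in MIV against MIII.

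Some fibroblast markers shared the peak in MIII with CXCL1, CXCL2 and CXCL3. Of 8 fibroblast markers, 6 had a mean above the pooled median in MIII, against 3 in MII and 2 in MIV. Their summed signal was 1096 to 1150.2 in MII, 4897 to 5203 in MIII and 757 to 849 in MIV. THY1, DCN, LUM and COL3A1 averaged 995, 2511, 197 and 653 in MIII and at most 75 in the other lines. LUM and COL3A1 passed the filter only through MIII, and THY1 through MIII and 1 array of MII. FAP did not peak in MIII and averaged 678 in MII, 405 in MIII and 390.4 in MIV. On its brightest probe set, of suffix _x_at, COL1A1 did not peak there either (243, 213 and 222.5 in the same order). The dimmer COL1A1 probe sets that passed the filter did peak in MIII. Their averages were 110.3, 280 and 112.4, and 51.2, 168 and 80.6, in that order of lines. PDGFRB and COL1A2 stayed under the pooled median on all arrays. The summed signal of 6 epithelial markers was 109294 to 114456 in MII, 65747 to 66858 in MIII and 108207 to 118334 in MIV, so CXCL16 was lowest in the line where that sum was lowest. The 6 measured leukocyte and endothelial markers summed to 1709 to 1956 in MII, 867 to 1082 in MIII and 709 to 751 in MIV, a decrease carried mainly by CD14, which averaged 1489.6, 594 and 323 in the same order of lines. The endothelial marker PECAM1 ran the other way, at 173.9, 251 and 306, with a log2 change of 0.78 ± 0.20 in MIV against MII (limma adjusted p = 0.0065), short of 2-fold. The part of any of these in the chemokine signals was not tested, and in bulk RNA fewer cells of a type and less RNA per cell cannot be told apart.

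Of the 10 members 8 lie on chromosome 4, where the genes of the neutrophil-attracting members stand together with those of the platelet chemokines PF4, PF4V1 and PPBP. In genome order they run CXCL8, CXCL6, PF4V1, CXCL1, PF4, PPBP, CXCL5, CXCL3 and CXCL2, and CXCL9, CXCL10, CXCL11 and CXCL13 follow farther along. Called and dim genes alternated in this row. CXCL8 and CXCL1 were called in all 3 comparisons, while CXCL6 and PF4V1 between them did not pass the filter. PF4, next to CXCL1, passed the filter and averaged 189.9 ± 19.8 in MII, 232 ± 27.8 in MIII and 122 ± 26.5 in the MIV arrays (mean ± SD, n = 3) and was not called. Its log2 change was 0.27 ± 0.18 in MIII against MII (limma adjusted p = 0.254), -0.84 ± 0.18 for MIV over MIII (0.00138) and -0.58 ± 0.18 for MIV over MII (0.0201). Its probe set also carries the _x_at suffix. At the far end of the row, CXCL3 and CXCL2 were called in MIII against MII and in MIV against MIII.

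**Figure D4:**
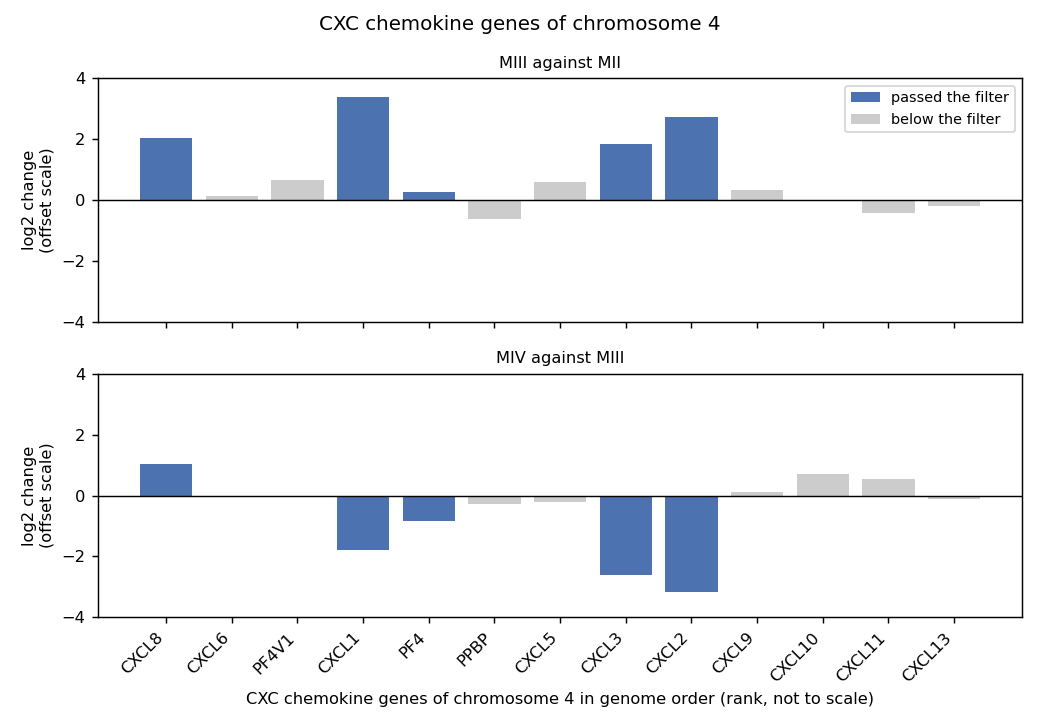
Bars give the log2 change (offset scale, fit without the filter) of the CXC chemokine genes of chromosome 4 in their genome order, for MIII over MII (top) and MIV over MIII (bottom); grey bars are genes that did not pass the filter. CXCL8 rises in both, whereas CXCL1, CXCL3 and CXCL2 rise in the first and fall in the next.

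The other CXC ligands and the receptors were then examined. Of 7 other ligands, only PF4 and CXCL17 passed the filter. CXCL17, a mucosal chemokine, had 335, 189 and 232 in MII, 49.5, 19.2 and 16.3 in MIII and 376, 442 and 378 in MIV. As for CXCL16, MIII was lowest, but here MIV was highest, and only the arrays of MII and MIV exceeded the pooled median. CXCL17 thus passed the filter through those lines alone, so its tests against MIII are no support for its low signal there. Its log2 change was -2.57 ± 0.26 in MIII against MII (limma adjusted p = 2.25e-06), 3.23 ± 0.26 in MIV against MIII (adjusted p = 2.05e-07) and 0.66 ± 0.26 in MIV against MII (adjusted p = 0.0612).

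None of CXCR1 to CXCR6 passed the filter in these cells. The receptors named here were chosen because they bind the tested ligands. CXCR1 exceeded the median on 2 arrays, and CXCR2, the shared receptor of CXCL1, CXCL2, CXCL3 and CXCL8, on 0 arrays, with signals of 1.3 to 58.6. CXCR6, the receptor of CXCL16, exceeded it on 1 array and reached 72.3. Of the 8 receptors listed, only ACKR1, a decoy receptor that binds CXC and CC chemokines without signalling, was tested. It had 8.1, 9.9 and 9.8 in MII, 123, 134.7 and 90.4 in MIII and 10.2, 13.2 and 14.0 in MIV. It passed the filter only through MIII, so these values are given as a description, with no test.

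Cytokines that induce CXC chemokines through NF-kB were measured next. Of 7 listed, 5 were tested. IL1A and IL1B, agonists of the interleukin 1 receptor, had the stepwise order of CXCL8. IL1B had 164.5, 212 and 168 in MII, 585, 625 and 537 in MIII and 944, 962.5 and 1046 in MIV. The lines did not overlap. It was called higher in MIII against MII (1.59 ± 0.11, limma adjusted p = 5.35e-08) and in MIV against MII (2.33 ± 0.11, adjusted p = 1.76e-09). In MIV against MIII its log2 change was 0.74 ± 0.11 (adjusted p = 8.6e-05). IL1A was called higher in all 3 comparisons, by 1.84 ± 0.20 in MIII against MII, 3.63 ± 0.20 in MIV against MII and 1.79 ± 0.20 in MIV against MIII. The dimmer probe set of IL1A, at 74.2 to 131 over all arrays, did not show that order. IL18 was lower in MIII than in MII by a log2 change of -1.48 ± 0.07, and LTB, which exceeded the pooled median on the 6 arrays of MII and MIII alone, was lower in MIV, by a log2 change of -1.14 ± 0.29 against MIII and -1.02 ± 0.29 against MII. LTB passed the filter through MII and MIII alone, so its test after the filter is no support for a lower signal in MIV. The other probe set of LTB averaged 57.9 in MII, 46.6 in MIII and 84.2 in MIV, an order that differs. TNF did not pass the filter.

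Among 11 tested NF-kB subunits and feedback genes, 1 was called higher and 0 lower in MIII against MII, 1 higher and 1 lower in MIV against MIII and 2 higher in MIV against MII. Their median log2 changes were -0.04, 0.16 and 0.21, beside medians between -0.03 and -0.01 over all genes. TNFAIP3, a feedback inhibitor of NF-kB and itself a target, averaged 195 ± 23.1 in MII, 569.6 ± 38.3 in MIII and 422 ± 38.3 in the MIV arrays (SD, n = 3). It was called higher in MIII than in MII (1.47 ± 0.12, limma adjusted p = 2.76e-07) and in MIV than in MII (1.05 ± 0.12, adjusted p = 1.19e-05). NFKB2, the precursor of the p52 subunit, was called higher in MIV than in MIII (1.71 ± 0.13) and in MIV than in MII (1.42 ± 0.13). NFKBIZ, a nuclear cofactor of NF-kB at some chemokine genes, was lower in MIV than in MIII by a log2 change of -1.11 ± 0.08. Its signals averaged 1413 in MII, 1597 in MIII and 727 in MIV. The 47 tested genes other than the members that hold the NF-kB letters in their windows were called higher at 10.6% in MIII against MII (5 genes), beside 6.12% of tested genes without them, and lower at 4.26% beside 5.55%. Their median log2 change there was -0.08, beside -0.02. In MIV against MIII they were called higher at 2.13% (1 gene) and lower at 8.51% (4 genes), beside 4.94% and 7.77%. In MIV against MII both shares were 6.38% (3 genes each), beside 2.93% higher and 5.17% lower.

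Regulators of chemokine mRNA decay were not called. ZFP36, ZFP36L1, ZFP36L2, ELAVL1 and KHSRP bind AU-rich or related elements in such mRNAs, and their log2 changes lay between -0.21 and 0.56 over the 3 comparisons. ZFP36L2 had the smallest p in MIV against MIII (0.56 ± 0.06, limma adjusted p = 2.89e-06), ZFP36L1 in MIV against MII (0.44 ± 0.06, 4.69e-05) and KHSRP in MIII against MII (0.28 ± 0.07, 0.00271).

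The interferon axis that induces CXCL10 and CXCL11 had 8 tested genes. Over the list the median log2 change was 0.56 in MIII against MII, -0.47 for MIV over MIII and 0.07 for MIV over MII. IFIT3, an antiviral effector, was higher in MIII than in MII by 2.43 ± 0.20 (limma adjusted p = 2.71e-07) on its brightest probe set. There it was lower in MIV than in MIII by a log2 change of -1.30 ± 0.20 and higher in MIV than in MII by 1.14 ± 0.20. The dimmer IFIT3 probe set, over the pooled median on 9 arrays, separated MIII and MIV less clearly. Its MIV arrays (158 to 244, mean 210) overlapped the MIII arrays (228 to 336, mean 282). The MII arrays (86 to 141, mean 118) lay below both. IRF7, a transcription factor of the interferon response, was higher in MIV than in MIII (1.47 ± 0.13) and than in MII (1.20 ± 0.13). No other member of this list was called on its brightest probe set. A dimmer probe set of IRF1 averaged 183 in MII, 396 in MIII and 122 in MIV, beside 443, 696 and 433 on the brightest. The dimmest of IFNGR1 averaged 136, 235 and 83.8 in the same order, beside 2496, 4259 and 2286. By contrast, the dimmer probe sets of GBP1 above the pooled median differed less between lines than its brightest. CXCL10 and CXCL11 stayed under the pooled median in all lines beside these changes. MMP9, which trims CXC chemokines, was not called, and DPP4, another such protease, did not pass the filter.

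**Figure D5:**
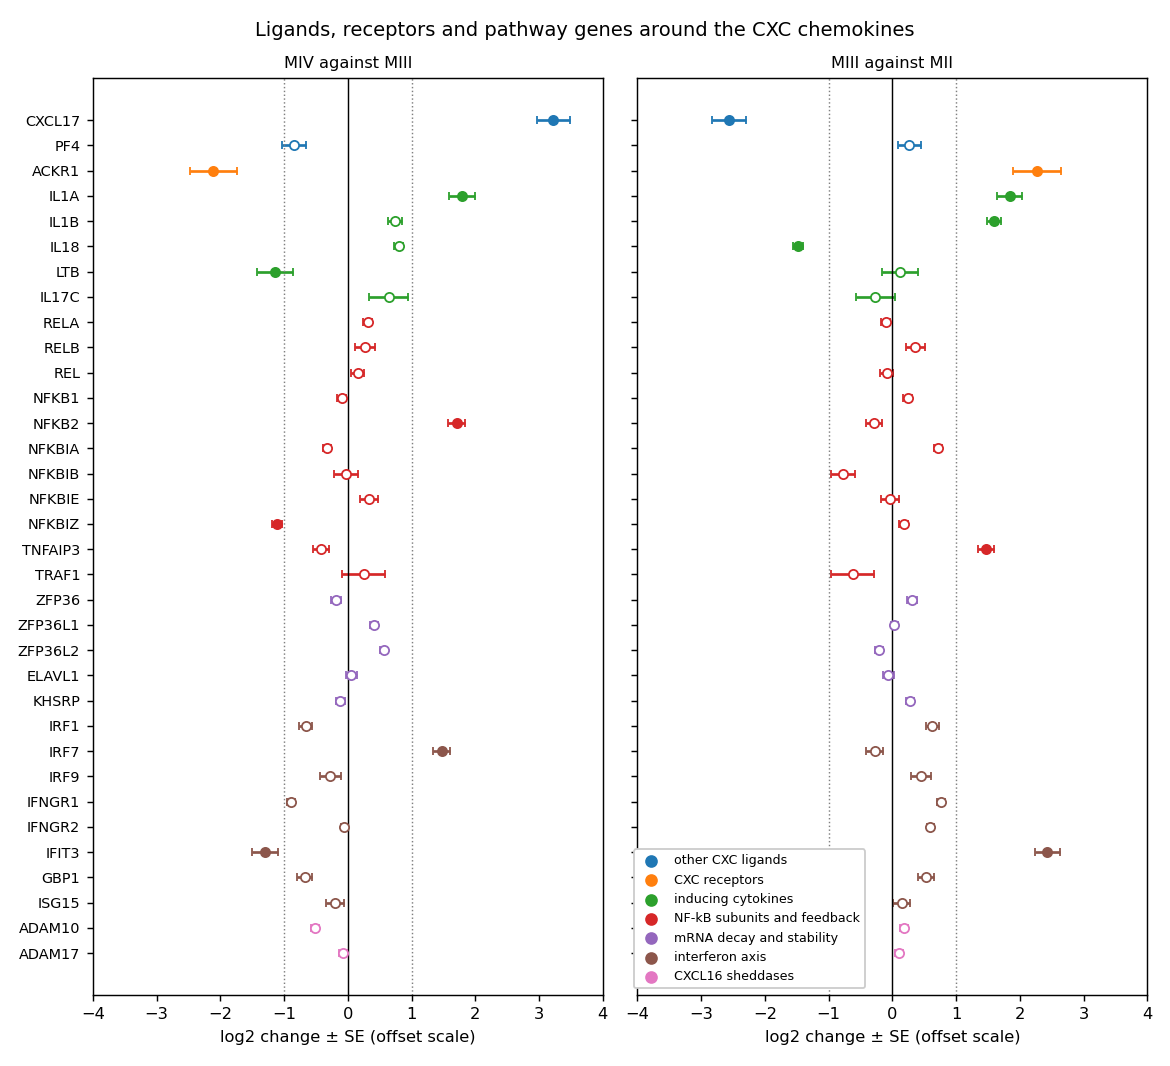
Points give the log2 change ± SE (offset scale) of the tested genes of 7 lists, coloured by list, in MIV against MIII (left) and MIII against MII (right); filled points were called and dotted lines mark 2-fold. ACKR1 passed the filter only through MIII, CXCL17 only through MII and MIV, and LTB only through MII and MIII. Their filled points are no support for a peak or a low in a line. IFIT3 is above 0 in MIII against MII and below 0 in MIV against MIII, CXCL17 has the opposite signs, and IL1A is above 0 in both.

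The genes whose log2 signals over the 9 arrays were most like those of CXCL8 were SSR3, IL15, CLMP, BNIP3 and ROBO1, with Pearson r between 0.996 and 0.997. All 5 had their lowest mean in MII and their highest in MIV. The cytokine IL15, for example, averaged 498 ± 45.5 in MII, 1290.3 ± 99.6 in MIII and 2083 ± 71.5 in the MIV arrays (SD, n = 3). The genes most like CXCL16 were GJB5, FA2H, STX12, LPCAT4 and IDH2, with r between 0.989 and 0.993. FA2H, a fatty acid hydroxylase, averaged 787 ± 148 in MII, 79.1 ± 25.7 in MIII and 451 ± 51.9 in MIV. These points share 3 lines and 9 arrays, so the values describe a common order of line means.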

How the data were processed

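Each array's deposited intensity for a probe set is a MAS5 signal, which the submitters' processing notes name. The sources used here give no software version or genome build. Trimmed means (middle 96% of values) lay close to 500.07 on all arrays, and no further scaling was applied. Probe sets were named from the array annotation; 0 symbols changed on matching to RefSeq (GRCh38.p14), which held all 10 members.

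Each gene was represented by its highest-mean probe set; genes over the pooled median on at least 3 arrays (12594 of 19775) were fitted as log2(signal + 18.3), the pooled 25th percentile, in limma 3.58.1 (R 4.3.3), with all 9 arrays, an intensity trend and 6 residual degrees of freedom. Benjamini-Hochberg adjustment covered all genes. Probe sets (29597) were fitted likewise. The fit was tested on simulated data. Same-numbered arrays deviated with correlations of -0.04 to 0.04, so no shared deviation by number was seen and no pairing was fitted. This cannot tell whether same-numbered arrays shared a culture or run.

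Members and lists were chosen with earlier results of these data known. Named genes were all members, from each list other than the cell type markers up to 3 called genes per comparison with the largest change (otherwise the smallest p), and the 5 genes most correlated with CXCL8 and CXCL16. Promoters were aligned and searched with Python 3.11.15 and Biopython 1.88. Listed genes without a probe set of their own were not analysed here.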

Additional observations from a re-analysis of the deposited data

How the results depend on the processing

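Directions of all 5 tested members held in every comparison under each alternative run, and 335 recomputed member changes stayed on their side of the call threshold, while 4 lost a call and 3 gained one. Those that lost a call were CXCL8 in MIV against MIII (0.98 under quantile normalization, 0.98 under cyclic loess and 0.98 without MIII replicate 2) and CXCL16 in MIV against MIII (0.97 with the offset at the pooled median). Without a minimum fold, CXCL2, CXCL3 and CXCL16 were called in MIV against MII as well, which made 5 members and 6 of their probe sets called, in place of 2 and 3. CXCL16 could not be tested when the filter was raised to the pooled 75th percentile (435.7). In MIV against MIII, CXCL2 changed by -2.16 on its suffix-free probe set and by -1.88 with its probe sets averaged, in place of -3.16, and stayed called. The suffix-free probe set passed the filter only through MIII, so its call in that run is no support for the peak there. Leaving out each array in turn gave 5 members called in MIII against MII, 2 in MIV against MII and 4 to 5 in MIV against MIII.

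Over all genes, that higher filter called 893 genes in MIV against MIII, 535 for MIV over MII and 810 for MIII over MII, in place of 1604, 1025 and 1476. No minimum fold called 6530, 5310 and 5946, and the offset at the pooled median called 681 in MIV against MII. Fewer genes were tested under the filter, and the cause of the last change was not tested. With the replicate block, 5, 2 and 5 members were called for the same comparisons, as without it, and 1607, 1026 and 1483 genes. Signal over background limits the dim members: 11 of 18 member probe sets did not pass the filter.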

Other observations

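Of 10 chemokines of the CC, CX3C and XC classes that were listed beside the CXC family, CCL20 and CCL28 passed the filter and neither was called. CCL20, a ligand of CCR6 that epithelia make in response to interleukin 1, had signals of 332, 324.5 and 302 in MII, 357, 412 and 359.7 in MIII and 645, 692 and 509 in MIV. The MIV arrays lay above all others. Its limma log2 change was 0.68 ± 0.12 in MIV against MIII (adjusted p = 0.000416), 0.90 ± 0.12 in MIV against MII (adjusted p = 5.68e-05) and 0.22 ± 0.12 in MIII against MII (adjusted p = 0.165).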
